A study of Arabidopsis thaliana with 12 samples.

Results

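The genes described here are 39 Arabidopsis thaliana loci that encode the core of the plant cell cycle engine, out of 33602 gene IDs measured. They were listed by locus ID, and the rule uses no measured value: 5 cyclin-dependent kinase genes (CDKA;1 and the 4 CDKB genes), 9 B-type cyclins, 9 A-type cyclins, 9 D-type cyclins and KRP1 to KRP7. All 39 IDs were found. Of these, 38 passed the filter for testing and had at least 1.77 FPKM in every library, so no tested gene passed through a single group. The exception was CYCD7;1 (AT5G02110), a D-type cyclin of the stomatal lineage, which reached 0.9501 FPKM (17 fragments) at most and was at 0 in a single Col-0-2 library, where 3 fragments would have given 0.153 FPKM.

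Poly-A RNA was sequenced from developing seeds dissected from siliques at 9 days after pollination, in 4 groups of 3 libraries. The groups were the mutant dellaq, the mutant lec1-4 and 2 separately named wild-type sets of accession Col-0, called Col-0-2 and Col-0-1. All plants grew at 22 °C in 16 h of light and 8 h of dark. The labels give dellaq by name alone and list no DELLA genes for it, and no label ties a wild-type set to a mutant. Each mutant was therefore compared with both sets.

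Cyclin-dependent kinases need a cyclin partner to be active. D-type cyclins act with CDKA;1 in the decision to begin a new cycle, A-type cyclins act from DNA replication towards mitosis, and B-type cyclins and the plant-specific CDKB kinases act at the entry into mitosis. KRP proteins bind and inhibit CDK complexes, and plant cells that keep replicating DNA without dividing, as many seed cells do, lower mitotic CDK activity. By 9 days after pollination an Arabidopsis seed holds a growing embryo, a cellularised endosperm and a differentiating seed coat, and whole-seed RNA mixes these tissues. Fewer dividing cells and less RNA per cell cannot be told apart in such bulk samples.

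Levels are FPKM, fragments normalized to transcript length and library size, as the authors computed them. Depth was 13730879 to 19415994 fragments in genes per library, and the tested members held between 27 (KRP7) and 1529 (CYCD3;2) fragments in a library, with 11 of the 38 under 100 in at least 1 library. Log2 changes are on the log2(FPKM + 1) scale, given with their standard error (SE), and all adjusted p-values are from limma with Benjamini-Hochberg adjustment over 20222 genes and a threshold of 0.05. A change that passed against Col-0-2 and against Col-0-1 in the same direction is called held. LEC1 (AT1G21970) averaged 2.81 ± 0.543 FPKM in lec1-4, against 124 ± 1.02 FPKM in Col-0-2 and 80.5 ± 12.9 FPKM in Col-0-1 (SD, n = 3 each). Of the DELLA genes, RGL1 averaged 1.39 ± 0.301 FPKM in dellaq, against 9.28 ± 0.791 FPKM in Col-0-2 and 14.4 ± 0.0977 FPKM in Col-0-1. RGL2 averaged 4.66 ± 1.197 FPKM in dellaq, against 16.9 ± 1.11 FPKM in Col-0-2 and 25.5 ± 0.528 FPKM in Col-0-1. RGA passed with smaller changes (-0.29 and -0.42), and GAI and RGL3 did not pass.

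Libraries differed in ways that the genotypes do not define. Plastid-encoded genes summed to 4523 to 8593 FPKM in the 6 dellaq and Col-0-2 libraries, against 127 to 251 FPKM in the 6 lec1-4 and Col-0-1 libraries. The rank correlation across genes between a gene's deviation from its mean and its exon length was -0.2603 to -0.1502 in the dellaq and Col-0-2 libraries and 0.239 to 0.305 in the lec1-4 and Col-0-1 libraries. On these features dellaq is matched by Col-0-2 and lec1-4 by Col-0-1, and changes are given against each set, with Col-0-2 before Col-0-1 where 2 values stand together. The median change of all tested genes was -0.12 in dellaq against Col-0-2 and -0.22 against Col-0-1, and 0.13 and 0.05 in lec1-4. Median-ratio scaling, which sets these medians near 0, is therefore given beside the counts.

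Most members had lower levels in dellaq. Against Col-0-2, 24 of the 38 tested members passed as lower and 6 as higher. Against Col-0-1, 29 passed as lower and 2 as higher. Over all tested genes, 41.6% were called lower and 21.9% higher against Col-0-2, and 50.9% lower and 19.4% higher against Col-0-1. The member changes had medians of -0.30 with Col-0-2 and -0.52 with Col-0-1 as the base. The fall held against both sets for 23 members, where 28.4% of all tested genes did the same, and a rise held for KRP2 alone, beside 9.78% of all genes. With median-ratio scaling, 15 members held lower and 4 higher, beside 16.2% and 17.4% of all tested genes. The single-set counts with that scaling were 18 lower and 8 higher against Col-0-2 (31.2% and 30.5% of all genes), and 21 lower and 6 higher against Col-0-1 (29.9% and 32.3%). Without Col-0-1 replicate 2 the number higher than Col-0-1 was 1 rather than 2. Of the 23 that held lower, 13 did so in all 22 alternatives that refit the data.

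In lec1-4 more members were higher than lower. Against Col-0-2, 26 were higher and 1 lower (42.7% and 23.3% of all tested genes), with a median change of 0.40. Against Col-0-1, 16 were higher and 3 lower (15.8% and 10.7% of all genes), with a median of 0.18. A rise held against both sets for 12 members, where 8.19% of all genes did so. By limma a fall held for 0 members, also at an unadjusted p under 0.05 and with voom on recovered fragments, beside 4.01% of all genes. With median-ratio scaling 6 members held higher and 0 lower, beside 5.09% and 5.59% of all genes, and the single-set counts were 20 higher and 1 lower against Col-0-2 (29.7% and 32.3% of all genes) and 12 and 3 against Col-0-1 (11.9% and 12.5%). The count of 12 rested on single libraries: it was 6 without Col-0-1 replicate 3 and 7 without lec1-4 replicate 1, and the 16 higher than Col-0-1 became 9 and 10. Without Col-0-1 replicate 3, and also without lec1-4 replicate 2, the 3 lower than Col-0-1 became 1. The 1 member lower than Col-0-2 was CYCA3;4, and it no longer passed without lec1-4 replicate 1, lec1-4 replicate 2 or Col-0-2 replicate 3.

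Set directly against each other, dellaq differed from lec1-4 for 33 members, being lower for 30 and higher for 3, with a median change of -0.77, where 54.6% of all tested genes were lower and 74.8% passed in either direction. With median-ratio scaling 25 were lower and 6 higher (33.2% and 33.8% of all genes). The 3 higher in dellaq were CYCD1;1, CYCD3;2 and KRP2, and without dellaq replicate 1, dellaq replicate 3 or lec1-4 replicate 2 KRP2 alone passed as higher. For 7 members the fall in dellaq and the rise in lec1-4 each held against both wild-type sets: CDKB1;2, CDKB2;1, CDKB2;2, CYCB1;1, CYCB1;3, CYCB3;1 and CYCD6;1. That is 18.4% of the 38, where 4.04% of all tested genes did the same, and with median-ratio scaling it was 3 members, where 1.71% of all genes did so. The mutants share both wild-type sets, so these changes are not independent of each other.

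**Figure D1:**
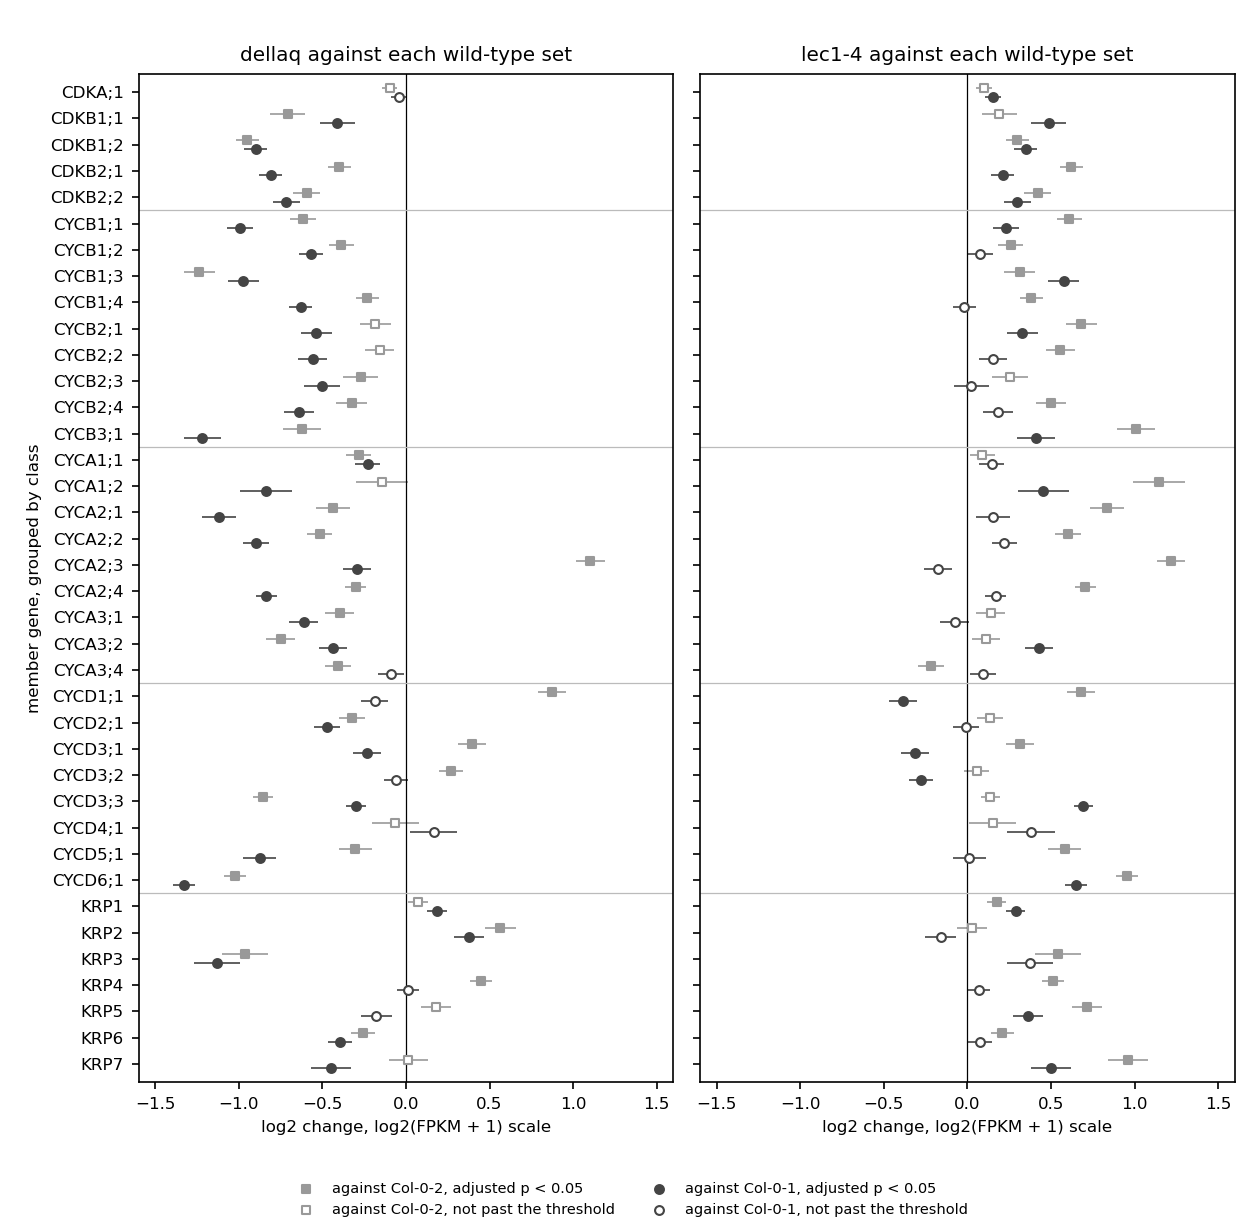
Log2 change of the 38 tested members (rows, by class) in dellaq (left panel) and lec1-4 (right panel) on the log2(FPKM + 1) scale, against Col-0-2 (light squares) and Col-0-1 (dark circles), with bars of 1 SE; filled points passed an adjusted p of 0.05. In dellaq all 13 CDKB and B-type cyclin genes lie left of 0 against both sets, while KRP2 lies right of 0, and CYCA2;3, CYCD1;1 and CYCD3;1 lie on opposite sides of 0 against the 2 wild-type sets.

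Tissue markers also differed between the groups, not always in the order of the cell cycle genes. Of 8 seed coat genes, 7 held lower in dellaq against both sets, where 28.4% of all tested genes did so, and with median-ratio scaling the count was also 7 (16.2% of all genes). The summed level of all 8 was 1007 to 1199 FPKM in dellaq and 1695 to 1851 FPKM in lec1-4, against 1561 to 1673 FPKM in Col-0-2 and 1625 to 1784 FPKM in Col-0-1. The remaining gene, TT10, passed in dellaq as higher than Col-0-2 and lower than Col-0-1. It averaged 641 FPKM in dellaq, most of the sum there, and 741 FPKM in lec1-4, against 560 FPKM in Col-0-2 and 791 FPKM in Col-0-1. Of 9 endosperm genes 7 were tested: FIS2, FWA, ZOU and ALE1 held lower in dellaq and EPR1 held higher (28.4% and 9.78% of all genes). The counts were the same with median-ratio scaling (16.2% and 17.4% of all genes). IKU2 and MINI3 were at 0 in most libraries and reached 0.0468 FPKM at most. The summed endosperm level, of which EPR1 made 2867 FPKM in dellaq, was 2761 to 3024 FPKM in dellaq and 629 to 788 FPKM in lec1-4, against 505 to 594 FPKM in Col-0-2 and 1297 to 1718 FPKM in Col-0-1. Embryo maturation genes summed to 624 to 711 FPKM in dellaq and 216 to 245 FPKM in lec1-4, against 306 to 327 FPKM in Col-0-2 and 517 to 570 FPKM in Col-0-1. This sum includes LEC1, the gene that lec1-4 is named for. LEC1 averaged 70.5 FPKM in dellaq and 2.81 FPKM in lec1-4, against 124 FPKM in Col-0-2 and 80.5 FPKM in Col-0-1. Against Col-0-2, 2 of the 5 genes passed as higher in lec1-4 and 3 as lower, LEC1 among the 3 (42.7% and 23.3% of all genes). Of these 5 genes 1 held higher and 1 lower in dellaq (9.78% and 28.4% of all genes), and with median-ratio scaling 3 and 1 (17.4% and 16.2%). The one that held higher in both, L1L, made 369.6 FPKM of the mean sum in dellaq. LEC2, an activator of the embryo programme, averaged 4.74 FPKM in dellaq and 28.3 FPKM in lec1-4, against 14.05 FPKM in Col-0-2 and 16.7 FPKM in Col-0-1, and it held lower in dellaq (-1.39 and -1.62) and higher in lec1-4 (0.96 and 0.73). Of 7 genes listed for the silique wall, 4 held lower in dellaq (28.4% of all genes), CA1 at a mean of 0.643 FPKM among them. Whether these 7 are specific to that tissue was not tested. With median-ratio scaling 3 held lower and 1 higher (16.2% and 17.4% of all genes). The sums of all 7 were 2729 to 2949 FPKM in dellaq and 2326 to 2449 FPKM in lec1-4, against 1801 to 1982 FPKM in Col-0-2 and 2794 to 3138 FPKM in Col-0-1, and they were mostly RBCS1A, a Rubisco small subunit gene, at a mean of 2717 FPKM in dellaq and 2151 FPKM in lec1-4, against 1740.0 FPKM in Col-0-2 and 2708 FPKM in Col-0-1. In lec1-4 a rise held for 1 seed coat, 1 endosperm, 1 silique wall and 1 embryo maturation gene. A fall held for 3 embryo maturation genes and for 0 genes of the other lists. Over all tested genes 8.19% held higher and 4.01% lower. With median-ratio scaling the seed coat count was 0 and the others were unchanged (5.09% and 5.59% of all genes). The part of tissue makeup in the cell cycle changes was not tested.

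The kinase genes split between CDKA;1 and the CDKB genes. CDKA;1 (AT3G48750), the kinase used throughout the cycle, had 36.9, 37.6 and 37.2 FPKM in dellaq and 44.01, 40.5 and 43.97 FPKM in lec1-4, against 39.5, 41.4 and 38.9 FPKM in Col-0-2 and 37.8, 40.2 and 37.2 FPKM in Col-0-1. The dellaq values lay within or just below the wild-type range, and lec1-4 overlapped Col-0-2 only. The dellaq changes of -0.10 ± 0.05 against Col-0-2 and -0.04 ± 0.05 against Col-0-1 (SE) did not pass, with adjusted p = 0.0851 and 0.425 by limma, although with median-ratio scaling the change against Col-0-1 was 0.21 (adjusted p = 0.00188). In lec1-4 CDKA;1 changed by 0.10 ± 0.05 against Col-0-2, which did not pass, and by 0.15 ± 0.05 against Col-0-1, which did. The last call rested on single libraries and was lost without lec1-4 replicate 1 or 3 or Col-0-1 replicate 1 or 3.

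All 4 CDKB genes were lower in dellaq than in both wild-type sets, and 3 of them were higher in lec1-4 than in both sets. That is 80% and 60% of the 5 CDK genes, beside 28.4% and 8.19% of all tested genes. With median-ratio scaling 3 of the 5 held lower in dellaq and 1 higher in lec1-4, beside 16.2% and 5.09% of all genes. CDKB1;2 (AT2G38620) had 8.99, 8.898 and 8.26 FPKM in dellaq and 22.5, 21.2 and 22.7 FPKM in lec1-4, against 19.8, 16.9 and 16.7 FPKM in Col-0-2 and 17.2, 17.8 and 16.4 FPKM in Col-0-1. The dellaq libraries were all below, and the lec1-4 libraries all above, the 6 wild-type libraries. Levels in dellaq were 0.489 times those in Col-0-2 and 0.509 times those in Col-0-1, and in lec1-4 they were 1.24 and 1.29 times. The log2 changes were -0.95 ± 0.07 and -0.90 ± 0.07 in dellaq (limma adjusted p = 1.9e-07 and 3.0e-07) and 0.30 ± 0.07 and 0.35 ± 0.07 in lec1-4 (adjusted p = 0.00222 and 0.00283). The dellaq call held in all 22 alternatives that refit the data and the lec1-4 call in 21, the exception being median-ratio scaling.

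CDKB1;1 (AT3G54180), which with CYCA2;3 is known to hold back endoreduplication, had 14.6, 12.2 and 12.9 FPKM in dellaq and 27.2, 25.2 and 24.1 FPKM in lec1-4, against 23.7, 20.19 and 22.9 FPKM in Col-0-2 and 18.5, 20.6 and 15.01 FPKM in Col-0-1. The mutants did not overlap with either set, but only the dellaq fall passed against both (-0.71 and -0.41), and it was lost with median-ratio scaling and after removal of the length and GC trend. In lec1-4 the change was 0.19 against Col-0-2, which did not pass, and 0.49 against Col-0-1, which did. CDKB2;1 (AT1G76540), a kinase of the G2 phase and mitosis, had 33.7, 30.03 and 30.3 FPKM in dellaq and 66.3, 61.9 and 65.6 FPKM in lec1-4, against 42.5, 41.1 and 41.2 FPKM in Col-0-2 and 56.4, 61.2 and 49.7 FPKM in Col-0-1. The 4 groups did not overlap, in the order dellaq, Col-0-2, Col-0-1 and lec1-4. Its dellaq changes of -0.40 ± 0.07 and -0.81 ± 0.07 held in all 22 alternatives, while its lec1-4 changes of 0.62 ± 0.07 and 0.21 ± 0.07 held in 12. The second was lost without lec1-4 replicate 1 or 3, Col-0-1 replicate 1 or 3 or Col-0-2 replicate 3, and with median-ratio scaling. CDKB2;2 (AT1G20930), its close paralog, had 20.8, 17.8 and 20.4 FPKM in dellaq and 41.4, 40.4 and 40.2 FPKM in lec1-4, against 34.04, 28.8 and 27.98 FPKM in Col-0-2 and 33.6, 34.9 and 30.3 FPKM in Col-0-1. Again dellaq lay below and lec1-4 above every wild-type library, with changes of -0.59 and -0.72 in dellaq and 0.42 and 0.30 in lec1-4. The lec1-4 call was lost without lec1-4 replicate 1 or without Col-0-1 replicate 3. Each CDKB gene overlaps a neighbouring gene in the annotation used. These neighbours averaged 0.0587 to 0.221 FPKM beside CDKB2;1 and CDKB2;2, 6.72 to 8.58 FPKM beside CDKB1;2, and 36.4 to 44.9 FPKM beside CDKB1;1.

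A ratio within a library does not change with the scaling of that library, but it keeps any change of its denominator and any length trend. The 4 CDKB levels summed to 2.11, 1.84 and 1.94 times the CDKA;1 level in dellaq and 3.58, 3.67 and 3.47 times in lec1-4, against 3.04, 2.58 and 2.799 times in Col-0-2 and 3.33, 3.35 and 2.996 times in Col-0-1. The dellaq ratios were below, and the lec1-4 ratios above, those of all 6 wild-type libraries. With 3 libraries against 3 a two-sided exact permutation test cannot go below p = 0.1, so the ratios are given as values.

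**Figure D2:**
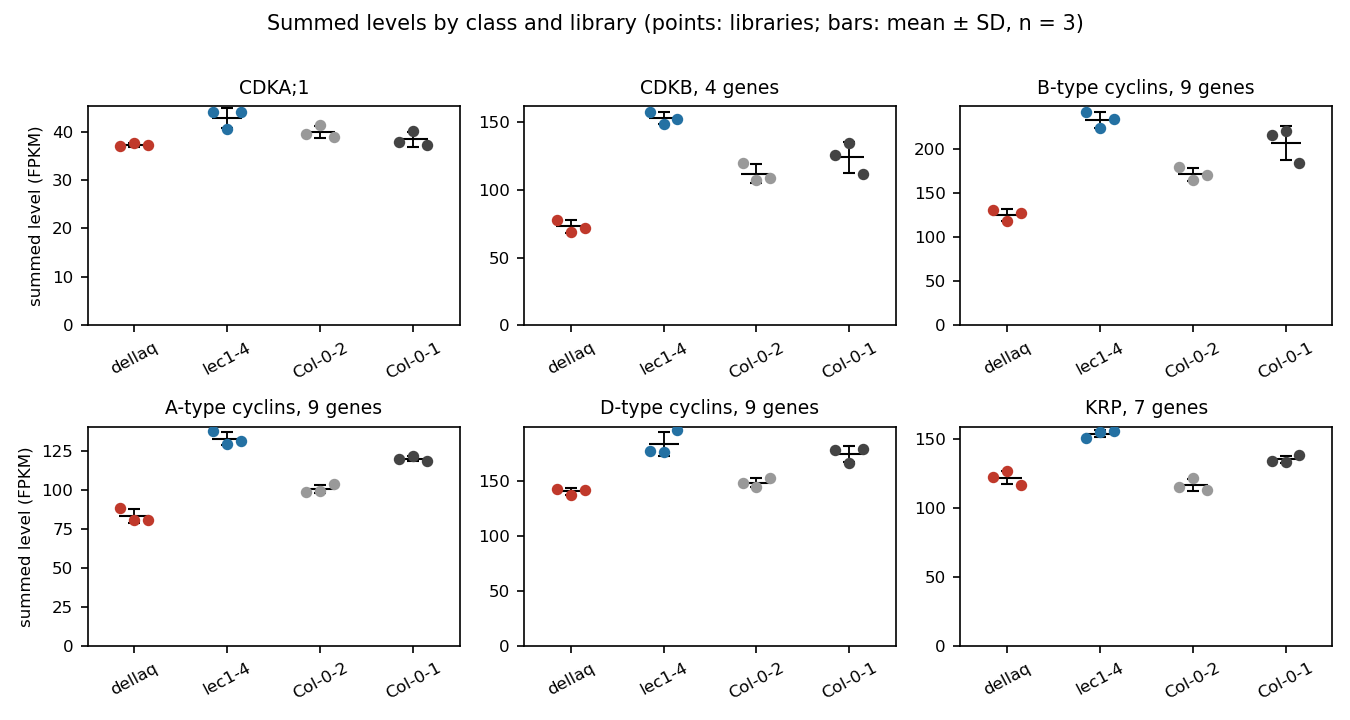
Summed FPKM (vertical axes, from 0) of CDKA;1, the 4 CDKB genes, the cyclin classes and the KRP genes in the 12 libraries, with points for libraries and bars for mean ± SD (n = 3). The CDKB, B-type and A-type sums are lowest in dellaq and highest in lec1-4, and the dellaq KRP sums of 117 to 127 FPKM overlap those of Col-0-2, at 113 to 122 FPKM.

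Every B-type cyclin was below its Col-0-1 level in dellaq, and 7 of the 9 held lower against both sets, or 77.8%, beside 28.4% of all tested genes. The class medians were -0.33 against Col-0-2 and -0.63 against Col-0-1, beside -0.12 and -0.22 for all tested genes. In lec1-4, 8 rose against Col-0-2 and 4 against Col-0-1, the same 4 holding against both, beside 42.7%, 15.8% and 8.19% of all genes, with class medians of 0.50 and 0.18. With median-ratio scaling 4 held lower in dellaq and 2 higher in lec1-4, beside 16.2% and 5.09% of all genes.

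CYCB1;3 (AT3G11520), one of the B1 cyclins that act on mitotic microtubules, had 9.78, 8.09 and 7.29 FPKM in dellaq and 26.5, 26.6 and 25.8 FPKM in lec1-4, against 22.3, 20.4 and 20.3 FPKM in Col-0-2 and 18.1, 18.6 and 15.4 FPKM in Col-0-1. Both mutants stood apart from all wild-type libraries, with dellaq lowest and lec1-4 highest. In dellaq the change was -1.24 ± 0.09 from Col-0-2 and -0.97 ± 0.09 from Col-0-1 (limma adjusted p = 2.5e-07 and 1.8e-06), and levels were 0.399 and 0.482 times wild type. In lec1-4 it was 0.31 ± 0.09 and 0.58 ± 0.09 (adjusted p = 0.0102 and 7.1e-04), which was lost with median-ratio scaling and after removal of the length and GC trend.

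CYCB1;1 (AT4G37490), the cyclin whose promoter is widely used to mark cells about to divide, had 11.9, 10.8 and 10.8 FPKM in dellaq and 28.5, 25.2 and 28.6 FPKM in lec1-4, against 17.3, 18.02 and 17.5 FPKM in Col-0-2 and 25.3, 24.04 and 20.5 FPKM in Col-0-1. The dellaq libraries were below all others, and lec1-4 overlapped Col-0-1 but not Col-0-2. Its fall in dellaq (-0.62 and -0.9955) held in all 22 alternatives, whereas its rise in lec1-4 (0.61 and 0.23, adjusted p = 2.3e-05 and 0.044 by limma) held in 8 and was lost in 9 of the 12 refits without a library. CYCB3;1 (AT1G16330), the B3 cyclin, was at a lower level, with 3.05, 2.94 and 4.08 FPKM in dellaq and 12.3, 12.6 and 12.3 FPKM in lec1-4, against 5.95, 5.94 and 5.13 FPKM in Col-0-2 and 9.297, 10.2 and 7.86 FPKM in Col-0-1. None of the 4 groups overlapped, and levels in dellaq were 0.271 times those in lec1-4 (log2 change -1.63 ± 0.11, adjusted p = 7.2e-08). Against Col-0-2 and Col-0-1 it changed by -0.62 and -1.22 in dellaq and by 1.01 and 0.41 in lec1-4, and the lec1-4 call was lost without lec1-4 replicate 2 or without Col-0-1 replicate 3.

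CYCB1;2 (AT5G06150), the most abundant B-type cyclin here, had 35.6, 31.02 and 33.8 FPKM in dellaq and 54.9, 51.4 and 52.3 FPKM in lec1-4, against 46.6, 41.6 and 43.9 FPKM in Col-0-2 and 53.2, 53.2 and 44.2 FPKM in Col-0-1. It was lower in dellaq than in every wild-type library, while lec1-4 overlapped Col-0-1. The dellaq changes were -0.39 ± 0.07 and -0.57 ± 0.07, and the lec1-4 change passed against Col-0-2 (0.26) but not against Col-0-1 (0.08). CYCB1;4 (AT2G26760), the remaining B1 cyclin, had 23.1, 22.6 and 23.5 FPKM in dellaq and 36.3, 33.4 and 37.8 FPKM in lec1-4, against 29.9, 26.5 and 25.4 FPKM in Col-0-2 and 35.9, 39.1 and 33.9 FPKM in Col-0-1. Its dellaq libraries were the lowest, with changes of -0.23 and -0.63, and this call was lost with median-ratio or upper-quartile scaling, after removal of the length and GC trend, and without Col-0-2 replicate 1. In lec1-4 it passed against Col-0-2 (0.38) and not against Col-0-1 (-0.02 ± 0.07).

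Among the B2 cyclins, which also act in mitosis, CYCB2;3 (AT1G20610) and CYCB2;4 (AT1G76310) held lower in dellaq, with changes of -0.27 and -0.33 against Col-0-2 and -0.50 and -0.64 against Col-0-1. The CYCB2;3 call was lost without dellaq replicate 1 or 2 or Col-0-2 replicate 1 or 3, and both were lost with median-ratio scaling. CYCB2;1 (AT2G17620) and CYCB2;2 (AT4G35620) were lower in dellaq than in Col-0-1 (-0.54 and -0.56), but their changes of -0.18 and -0.16 against Col-0-2 did not pass. CYCB2;1 held higher in lec1-4 (0.68 and 0.33), also with median-ratio scaling, but not without lec1-4 replicate 1 or 3 or Col-0-1 replicate 1 or 3. Mean levels of the B2 genes ranged from 4.17 FPKM (CYCB2;1 in dellaq) to 33.4 FPKM (CYCB2;4 in lec1-4). The 9 B-type levels summed to 3.53, 3.14 and 3.43 times CDKA;1 in dellaq and 5.49, 5.52 and 5.31 times in lec1-4, against 4.53, 3.97 and 4.39 times in Col-0-2 and 5.699, 5.46 and 4.95 times in Col-0-1. On this scaling-free measure dellaq was below every wild-type library, and lec1-4 lay within the Col-0-1 range.

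**Figure D3:**
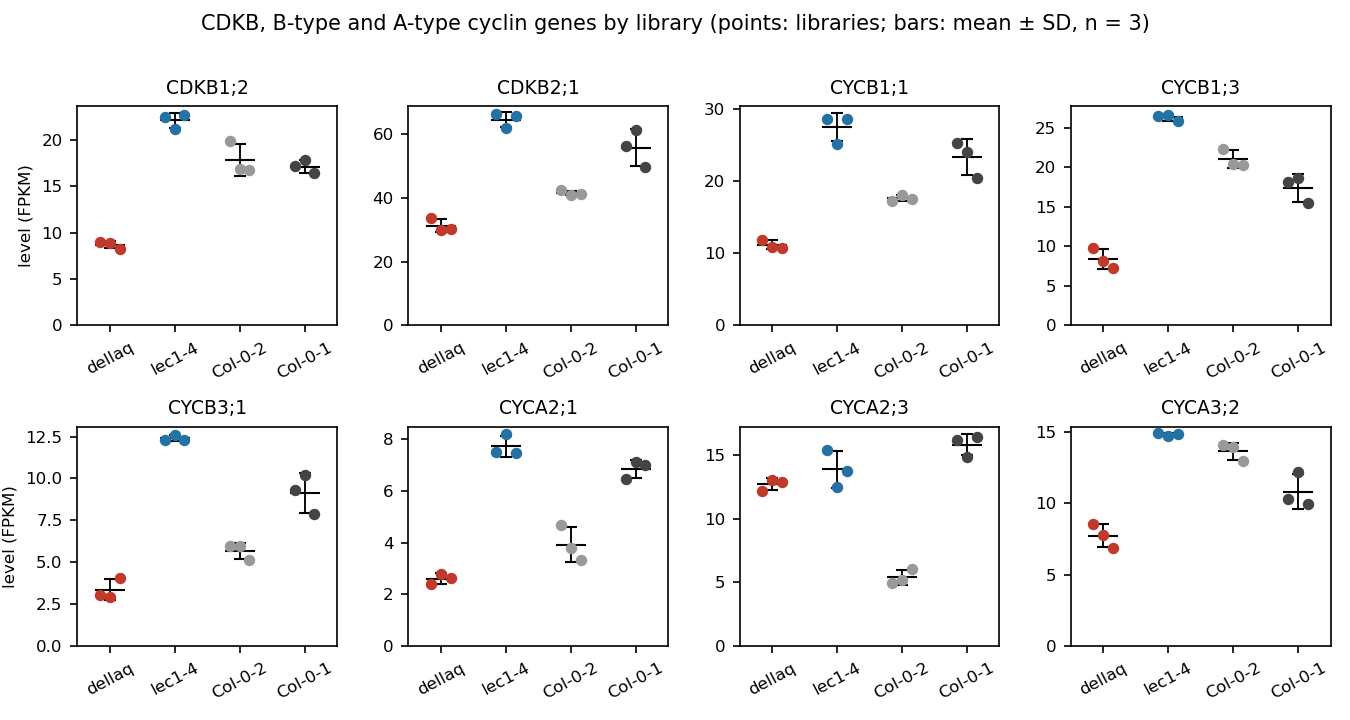
Level in FPKM (vertical axes, from 0) of 8 CDKB, B-type and A-type cyclin genes in each library of the 4 groups, with points for libraries and bars for mean ± SD (n = 3). In 7 of the panels the dellaq libraries lie below all others; in the CYCA2;3 panel it is Col-0-2 that lies apart, at 4.91 to 6.04 FPKM.

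A-type cyclins followed the same direction in dellaq, with 6 of 9 holding lower against both sets, or 66.7%, beside 28.4% of all tested genes, and their class medians were -0.40 against Col-0-2 and -0.61 against Col-0-1. In lec1-4, 5 rose and 1 fell against Col-0-2 and 2 rose against Col-0-1, beside 42.7%, 23.3% and 15.8% of all genes. CYCA1;2 alone held, or 11.1% of the class, near the 8.19% of all genes. With median-ratio scaling 5 held lower in dellaq, beside 16.2% of all genes, and in lec1-4 CYCA1;2 no longer held.

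The CYCA2 subfamily, which restrains endoreduplication together with CDKB1;1, split in 2 patterns. CYCA2;1 (AT5G25380) had 2.398, 2.79 and 2.63 FPKM in dellaq and 7.503, 8.18 and 7.48 FPKM in lec1-4, against 4.66, 3.77 and 3.31 FPKM in Col-0-2 and 6.45, 7.09 and 6.98 FPKM in Col-0-1. CYCA2;2 (AT5G11300) had 3.12, 3.67 and 3.65 FPKM in dellaq and 8.602, 8.57 and 9.02 FPKM in lec1-4, against 5.49, 5.27 and 5.46 FPKM in Col-0-2 and 7.41, 7.77 and 6.88 FPKM in Col-0-1. CYCA2;4 (AT1G80370) had 14.8, 13.5 and 14.2 FPKM in dellaq and 30.01, 29.1 and 29.01 FPKM in lec1-4, against 16.2, 17.6 and 19.2 FPKM in Col-0-2 and 26.3, 27.03 and 24.8 FPKM in Col-0-1. In all 3 the groups did not overlap and ran in the order dellaq, Col-0-2, Col-0-1 and lec1-4. The dellaq changes were -0.44, -0.52 and -0.30 against Col-0-2 and -1.12, -0.90 and -0.84 against Col-0-1, and each held in all 22 alternatives. In lec1-4 the changes of 0.15, 0.22 and 0.17 against Col-0-1 did not pass, while those of 0.83, 0.60 and 0.71 against Col-0-2 did.

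CYCA2;3 (AT1G15570), named after its values were seen, did not share this order. It had 12.2, 13.1 and 12.8 FPKM in dellaq and 15.4, 12.5 and 13.7 FPKM in lec1-4, against 4.91, 5.195 and 6.04 FPKM in Col-0-2 and 16.1, 14.8 and 16.4 FPKM in Col-0-1. Col-0-2 lay apart from the other 3 groups, which overlapped in part. The level in Col-0-2 was 0.341 times that in Col-0-1 (log2 change -1.40 ± 0.09, limma adjusted p = 4.7e-08), so dellaq was higher than Col-0-2 (1.10) and lower than Col-0-1 (-0.29), with both past the threshold. The second no longer passed with median-ratio or upper-quartile scaling. The difference between the mutants did not pass (-0.12 ± 0.09, adjusted p = 0.233). The CYCA2;3 to CYCA2;4 ratio was 0.822, 0.969 and 0.905 in dellaq and 0.513, 0.429 and 0.472 in lec1-4, against 0.304, 0.295 and 0.314 in Col-0-2 and 0.614, 0.549 and 0.659 in Col-0-1. CYCA2;3 overlaps a neighbouring gene that averaged 0.168 to 0.464 FPKM in the groups.

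Of the A3 cyclins, which peak around DNA replication, CYCA3;2 (AT1G47210) had 8.55, 7.76 and 6.91 FPKM in dellaq and 14.9, 14.7 and 14.9 FPKM in lec1-4, against 14.1, 13.95 and 12.98 FPKM in Col-0-2 and 10.3, 12.2 and 9.98 FPKM in Col-0-1. The mutants lay outside the wild-type range on opposite sides, but Col-0-2 was also above Col-0-1. The dellaq changes of -0.75 ± 0.08 and -0.44 ± 0.08 held except after removal of the length and GC trend, and in lec1-4 the change of 0.43 against Col-0-1 passed while that of 0.11 against Col-0-2 did not. CYCA3;1 (AT5G43080) held lower in dellaq (-0.40 and -0.61) in all 22 alternatives. CYCA3;4 (AT1G47230) was lower in dellaq and in lec1-4 than in Col-0-2 (-0.40 and -0.22), with changes of -0.09 and 0.09 against Col-0-1 that did not pass. It overlaps the neighbouring gene AT1G47240, which averaged 14.4 to 21.2 FPKM in the groups.

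The A1 cyclins changed less evenly. CYCA1;1 (AT1G44110), a mitotic A-type cyclin, had 20.9, 17.5 and 17.1 FPKM in dellaq and 25.9, 23.2 and 23.4 FPKM in lec1-4, against 23.1, 22.2 and 22.6 FPKM in Col-0-2 and 21.3, 20.8 and 23.2 FPKM in Col-0-1. The dellaq values reached into the wild-type range, and its changes of -0.28 and -0.23 passed, but against Col-0-1 the change was 0.017 with median-ratio scaling (adjusted p = 0.845) and after removal of the length and GC trend it was 0.051 (adjusted p = 0.556), and it no longer passed without dellaq replicate 2 or 3 or Col-0-1 replicate 3. Its lec1-4 changes of 0.09 and 0.14 did not pass. CYCA1;2 (AT1G77390), known as TAM and required in meiosis, had 2.96, 1.81 and 1.77 FPKM in dellaq and 7.69, 6.83 and 5.62 FPKM in lec1-4, against 2.51, 2.94 and 1.996 FPKM in Col-0-2 and 4.46, 4.81 and 4.52 FPKM in Col-0-1. It was higher in lec1-4 than in every other library, while dellaq overlapped Col-0-2. The rise in lec1-4 was 1.15 ± 0.15 and 0.45 ± 0.15 (adjusted p = 3.7e-05 and 0.0471 by limma) and held in 10 of 22 alternatives, with calls lost without lec1-4 replicate 1 or 2, any Col-0-1 library or Col-0-2 replicate 1. The dellaq change passed against Col-0-1 alone (-0.84).

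D-type cyclins passed in both directions. In dellaq 4 of the 8 tested passed as lower and 3 as higher against Col-0-2, 5 passed as lower against Col-0-1, and 4 held lower, beside 41.6%, 21.9%, 50.9% and 28.4% of all tested genes. In lec1-4, 4 passed as higher against Col-0-2, and against Col-0-1 2 passed as higher and 3 as lower, beside 42.7%, 15.8% and 10.7% of all genes. The medians were -0.18 and -0.27 in dellaq and 0.23 and -0.0004 in lec1-4. In lec1-4 CYCD6;1 alone held, or 12.5% of the 8 tested, beside 8.19% of all genes. With median-ratio scaling 2 held lower and 1 higher in dellaq, beside 16.2% and 17.4% of all genes. CYCD6;1 alone again held in lec1-4, beside 5.09% of all genes.

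CYCD6;1 (AT4G03270), known from the formative divisions of the root ground tissue, had the largest difference between the mutants of the 38 tested members. It had 6.697, 6.64 and 6.94 FPKM in dellaq and 29.3, 27.7 and 31.9 FPKM in lec1-4, against 14.7, 15.02 and 14.6 FPKM in Col-0-2 and 19.2, 19.4 and 16.9 FPKM in Col-0-1. The 4 groups did not overlap, with dellaq lowest and lec1-4 highest. Levels in dellaq were 0.457 times those in Col-0-2 and 0.365 times those in Col-0-1, and in lec1-4 they were 2.004 and 1.599 times. The log2 changes were -1.02 ± 0.07 and -1.33 ± 0.07 in dellaq (limma adjusted p = 6.6e-08 and 9.2e-09) and 0.95 ± 0.07 and 0.65 ± 0.07 in lec1-4 (adjusted p = 1.5e-07 and 2.0e-05). Against lec1-4 the change in dellaq was -1.98 ± 0.07 (adjusted p = 2.6e-10), and both mutant calls held in all 22 alternatives. CYCD6;1 was 0.181, 0.177 and 0.187 times CDKA;1 in dellaq and 0.666, 0.684 and 0.725 times in lec1-4, against 0.373, 0.363 and 0.376 times in Col-0-2 and 0.509, 0.483 and 0.455 times in Col-0-1. It overlaps the neighbouring gene AT4G03260 in the annotation used. That gene averaged 28.1 ± 0.6396 FPKM in dellaq and 53.1 ± 2.69 FPKM in lec1-4, against 31.2 ± 0.487 FPKM in Col-0-2 and 50.001 ± 2.26 FPKM in Col-0-1 (SD, n = 3 each), and the part of shared reads was not tested.

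The CYCD3 genes, which respond to cytokinin and keep cells dividing, differed among themselves. CYCD3;3 (AT3G50070) had 22.7, 22.6 and 21.5 FPKM in dellaq and 41.9, 44.7 and 49.5 FPKM in lec1-4, against 41.5, 40.7 and 41.1 FPKM in Col-0-2 and 29.1, 27.02 and 26.8 FPKM in Col-0-1. The groups did not overlap, and Col-0-2 was nearer to lec1-4 than to Col-0-1. The dellaq fall of -0.86 ± 0.06 and -0.30 ± 0.06 held against both sets but was lost with median-ratio scaling and after removal of the length and GC trend. In lec1-4 the change was 0.69 against Col-0-1, which passed, and 0.14 against Col-0-2, which did not. CYCD3;2 (AT5G67260), the member with the highest mean over the 12 libraries, had 64.8, 56.9 and 65.5 FPKM in dellaq and 52.7, 50.4 and 57.6 FPKM in lec1-4, against 50.8, 48.6 and 55.2 FPKM in Col-0-2 and 66.4, 60.4 and 68.7 FPKM in Col-0-1. Its dellaq values overlapped Col-0-1 but not Col-0-2, and its lec1-4 values overlapped Col-0-2 but not Col-0-1. In dellaq it rose against Col-0-2 (0.27), and in lec1-4 it fell against Col-0-1 (-0.28), the second not without lec1-4 replicate 2 or Col-0-1 replicate 3. Against Col-0-1 the dellaq change of -0.06 did not pass, and with median-ratio scaling it was 0.19 (adjusted p = 0.0276).

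CYCD3;1 (AT4G34160) and CYCD1;1 (AT1G70210), named after their values were seen, passed in opposite directions against the 2 wild-type sets, CYCD3;1 in both mutants and CYCD1;1 in lec1-4. CYCD3;1 had 15.8, 18.2 and 15.6 FPKM in dellaq and 15.6, 15.3 and 15.8 FPKM in lec1-4, against 11.8, 11.6 and 13.5 FPKM in Col-0-2 and 19.5, 17.6 and 21.7 FPKM in Col-0-1. Col-0-2 was lowest, and the other 3 groups overlapped in part. Its changes were 0.39 and -0.23 in dellaq and 0.32 and -0.31 in lec1-4. The dellaq change against Col-0-1 was 0.011 with median-ratio scaling (adjusted p = 0.926), and it did not pass without dellaq replicate 1 or 3 or Col-0-1 replicate 1 or 3. The lec1-4 change against Col-0-1 did not pass without lec1-4 replicate 2 or Col-0-1 replicate 3, and that against Col-0-2 did not pass with median-ratio scaling. CYCD1;1 had 16.4, 15.6 and 16.2 FPKM in dellaq and 12.4, 13.6 and 15.96 FPKM in lec1-4, against 7.77, 8.397 and 8.79 FPKM in Col-0-2 and 18.2, 17.5 and 19.8 FPKM in Col-0-1. Both mutants lay above Col-0-2 and below Col-0-1, and the lec1-4 changes of 0.68 and -0.38 both passed, while in dellaq the change of 0.88 against Col-0-2 passed and that of -0.19 against Col-0-1 did not. The CYCD3;1 to CYCD3;3 ratio was 0.694, 0.805 and 0.725 in dellaq and 0.371, 0.341 and 0.3198 in lec1-4, against 0.284, 0.286 and 0.329 in Col-0-2 and 0.6698, 0.653 and 0.811 in Col-0-1. In this ratio dellaq lay with Col-0-1 and lec1-4 lay with Col-0-2, the reverse of the plastid-encoded sums. CYCD3;1 and CYCD1;1 each overlap a neighbouring gene, which averaged 35.7 to 83.5 FPKM in the groups beside CYCD3;1 and was at 0 in all libraries beside CYCD1;1.

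CYCD2;1 (AT2G22490), a cyclin of the transition into DNA replication, had 9.25, 10.3 and 10.2 FPKM in dellaq and 15.4, 12.4 and 14.3 FPKM in lec1-4, against 12.6, 13.2 and 12.2 FPKM in Col-0-2 and 14.9, 13.5 and 13.98 FPKM in Col-0-1. The dellaq libraries were below all others, which overlapped. The fall of -0.33 ± 0.08 and -0.47 ± 0.08 was lost after removal of the length and GC trend, and the lec1-4 changes of 0.14 and -0.01 did not pass. CYCD5;1 (AT4G37630), linked by natural variation to the extent of endoreduplication, had 4.12, 4.24 and 3.403 FPKM in dellaq and 7.59, 8.71 and 7.96 FPKM in lec1-4, against 5.88, 4.697 and 4.66 FPKM in Col-0-2 and 8.08, 7.81 and 8.14 FPKM in Col-0-1. Again dellaq was lowest, with changes of -0.30 and -0.88, and lec1-4 overlapped Col-0-1 (0.01, not past the threshold) and exceeded Col-0-2 (0.58). The dellaq call held in 16 of 22 alternatives and was lost without dellaq replicate 3 or Col-0-2 replicate 1. CYCD4;1 (AT5G65420), between 2.06 and 3.88 FPKM, passed in no comparison with wild type (log2 changes of -0.06 and 0.17 in dellaq and 0.15 and 0.38 in lec1-4).

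**Figure D4:**
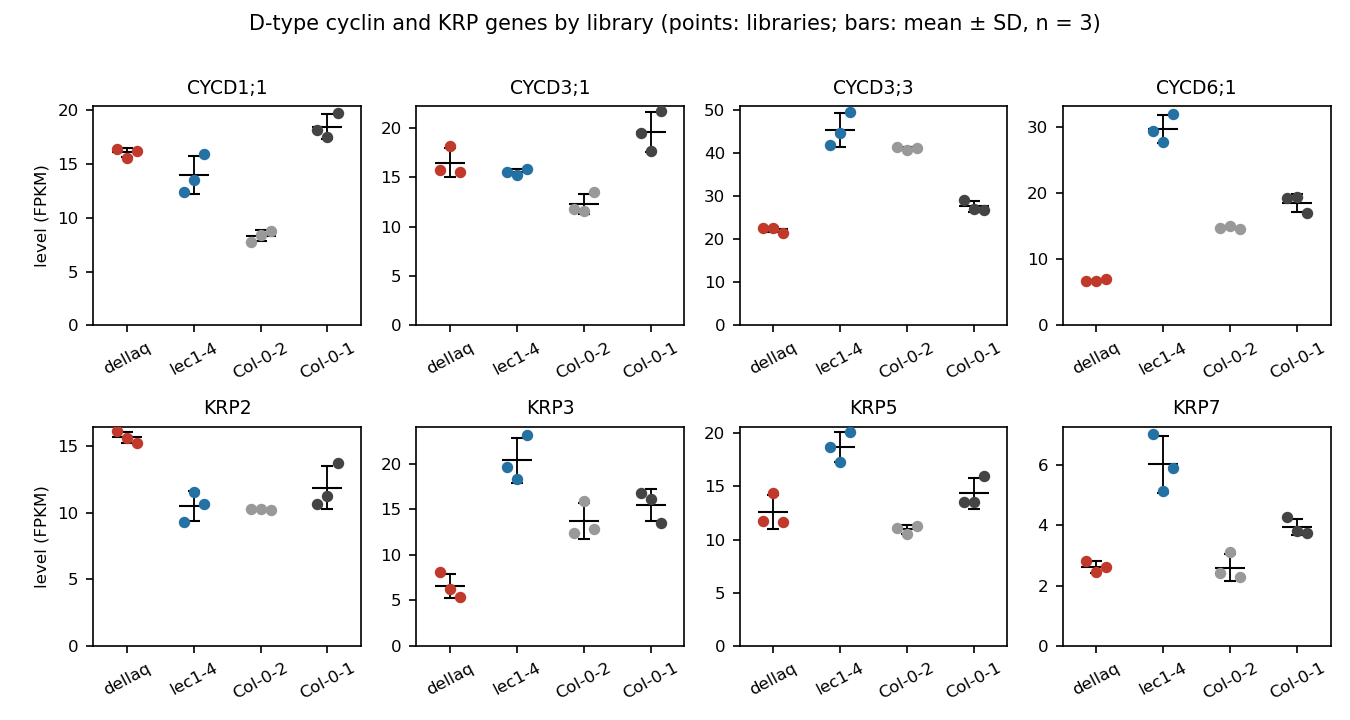
Level in FPKM (vertical axes, from 0) of 4 D-type cyclin and 4 KRP genes in each library of the 4 groups, with points for libraries and bars for mean ± SD (n = 3). CYCD6;1 and KRP3 are lowest in dellaq and highest in lec1-4, KRP2 is highest in dellaq at 15.2 to 16.1 FPKM, and Col-0-2 is lowest for CYCD1;1 and CYCD3;1.

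Of the KRP inhibitor genes, KRP2 held higher and KRP3 and KRP6 held lower in dellaq, shares of 14.3% and 28.6% that lie near the 9.78% and 28.4% of all tested genes. In lec1-4, 6 of 7 rose against Col-0-2 and 3 against Col-0-1, and KRP1, KRP5 and KRP7 held, beside 42.7%, 15.8% and 8.19% of all genes. The medians were 0.07 and -0.18 in dellaq and 0.51 and 0.29 in lec1-4, against Col-0-2 and Col-0-1. With median-ratio scaling KRP1, KRP2 and KRP4 held higher and KRP3 lower in dellaq (17.4% and 16.2% of all genes), and KRP5 and KRP7 held higher in lec1-4 (5.09%).

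KRP2 (AT3G50630), an inhibitor that links auxin to lateral root initiation, had 16.1, 15.6 and 15.2 FPKM in dellaq and 9.301, 11.5 and 10.6 FPKM in lec1-4, against 10.3, 10.3 and 10.2 FPKM in Col-0-2 and 10.7, 11.2 and 13.7 FPKM in Col-0-1. The dellaq libraries were above all others, and lec1-4 overlapped both wild-type sets. The rise in dellaq was 0.57 ± 0.09 and 0.38 ± 0.09 (limma adjusted p = 1.5e-04 and 0.0025), and it held in all alternatives that refit the data but equal FPKM sums. KRP3 (AT5G48820) went the other way, with 8.07, 6.25 and 5.42 FPKM in dellaq and 19.6, 18.3 and 23.1 FPKM in lec1-4, against 12.4, 15.9 and 12.8 FPKM in Col-0-2 and 16.8, 16.2 and 13.5 FPKM in Col-0-1. Levels in dellaq were below every other library, at 0.48 times those in Col-0-2 and 0.425 times those in Col-0-1. The fall of -0.96 ± 0.14 and -1.13 ± 0.14 (adjusted p = 5.9e-05 and 1.4e-05) held in all 22 alternatives, and in lec1-4 the change was 0.54 against Col-0-2, which passed, and 0.37 against Col-0-1, which did not. The KRP2 to KRP3 ratio was 1.99, 2.49 and 2.81 in dellaq and 0.474, 0.6297 and 0.459 in lec1-4, against 0.826, 0.644 and 0.797 in Col-0-2 and 0.633, 0.695 and 1.02 in Col-0-1. KRP2 was thus above KRP3 in all dellaq libraries and below it in the other libraries, with the exception of Col-0-1 replicate 3.

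**Figure D5:**
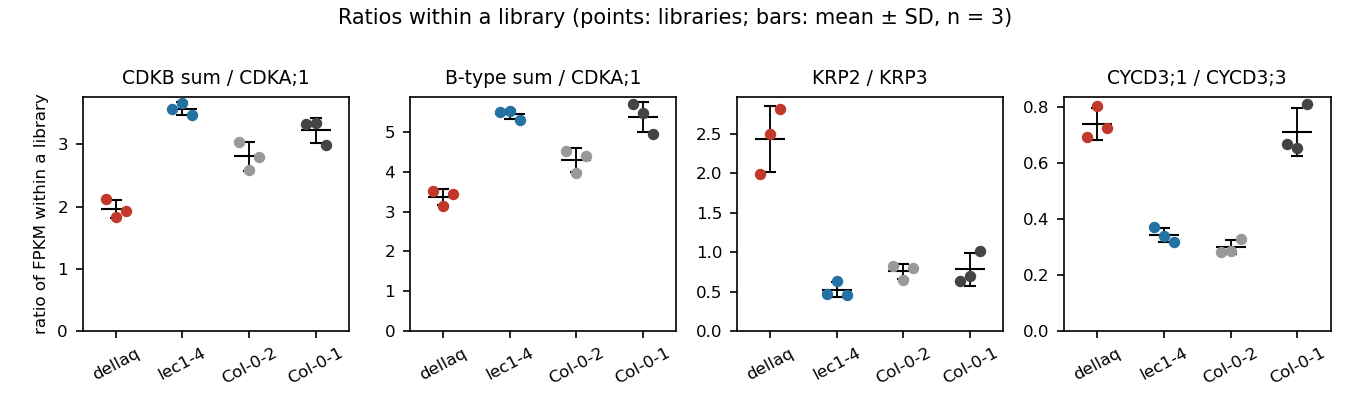
Ratios of FPKM within each library (vertical axes, from 0), which do not depend on the scaling of the library, with points for libraries and bars for mean ± SD (n = 3). The CDKB and B-type sums relative to CDKA;1 are lowest in dellaq, the KRP2 to KRP3 ratio is highest in dellaq, and the CYCD3;1 to CYCD3;3 ratio pairs dellaq with Col-0-1 and lec1-4 with Col-0-2.

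KRP5 (AT3G24810), which acts in cell elongation and DNA content of the root, had 11.8, 14.4 and 11.6 FPKM in dellaq and 18.7, 17.2 and 20.09 FPKM in lec1-4, against 11.1, 10.5 and 11.3 FPKM in Col-0-2 and 13.5, 13.5 and 15.97 FPKM in Col-0-1. KRP7 (AT1G49620) had 2.81, 2.44 and 2.61 FPKM in dellaq and 7.03, 5.15 and 5.904 FPKM in lec1-4, against 2.41, 3.104 and 2.29 FPKM in Col-0-2 and 4.26, 3.82 and 3.76 FPKM in Col-0-1. Both were higher in lec1-4 than in any other library, while dellaq overlapped Col-0-1 for KRP5 and Col-0-2 for KRP7. The rise in lec1-4 was 0.72 ± 0.09 and 0.36 ± 0.09 for KRP5 and 0.96 ± 0.12 and 0.50 ± 0.12 for KRP7, and each held in all 22 alternatives. In dellaq the KRP5 changes of 0.18 and -0.18 did not pass, and KRP7 passed against Col-0-1 alone (-0.45).

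KRP4 (AT2G32710), tied to cell size control in the shoot meristem, had 32.5, 38.9 and 33.7 FPKM in dellaq and 37.7, 36.1 and 35.6 FPKM in lec1-4, against 25.6, 24.6 and 25.7 FPKM in Col-0-2 and 33.1, 33.7 and 37.3 FPKM in Col-0-1. Col-0-2 lay below the other groups, so that both mutants were higher than Col-0-2 (0.45 and 0.51), with changes of 0.01 and 0.07 against Col-0-1 that did not pass. With equal FPKM sums the dellaq change against Col-0-1 was -0.17 (adjusted p = 0.029). KRP4 overlaps the neighbouring gene AT2G32720. That gene averaged 84.9 ± 0.306 FPKM in dellaq and 81.7 ± 6.18 FPKM in lec1-4, against 70.4 ± 5.33 FPKM in Col-0-2 and 75.6 ± 4.74 FPKM in Col-0-1 (SD, n = 3 each). The part of shared reads was not tested. KRP6 (AT3G19150), a target of the F-box protein FBL17 in pollen, had 27.1, 26.4 and 25.3 FPKM in dellaq and 32.7, 40.5 and 37.2 FPKM in lec1-4, against 32.2, 33.2 and 29.5 FPKM in Col-0-2 and 35.6, 35.7 and 33.1 FPKM in Col-0-1. It was below all other libraries in dellaq, with changes of -0.26 and -0.39, a call that was lost with median-ratio scaling and after removal of the length and GC trend. KRP1 (AT2G23430), between 19.8 and 26.2 FPKM, held higher in lec1-4 (0.17 and 0.29), but not without lec1-4 replicate 1 or 2 or Col-0-2 replicate 1 or 3. In dellaq it passed against Col-0-1 (0.19), but not without Col-0-1 replicate 2, and did not pass against Col-0-2 (0.07).

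The wild-type sets, of the same labelled genotype, differed from each other for many members. Col-0-2 was lower than Col-0-1 for 22 and higher for 5, with a median of -0.31, where 40.1% of all tested genes were lower and 25.8% higher and the median was -0.10. With median-ratio scaling 19 were lower and 7 higher (31% and 32.9% of all genes), and without Col-0-1 replicate 3 or Col-0-2 replicate 1 the number higher was 3. By class, 7 of 9 B-type, 6 of 9 A-type, 5 of 8 D-type and 3 of 7 KRP genes were lower in Col-0-2, as was CDKB2;1. The 5 that were higher were CDKB1;1, CYCB1;3, CYCA3;2, CYCA3;4 and CYCD3;3. The largest differences were those of CYCA2;3 and CYCD1;1 (-1.06 ± 0.08), and CYCB3;1 differed by -0.60 ± 0.11, as much as its dellaq change from Col-0-2.

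Genes that act on these complexes were listed as 31 further loci, chosen with earlier results of these data known, and all were tested. In dellaq 10 held lower and 2 higher against both sets, 32.3% and 6.45% of the list, beside 28.4% and 9.78% of all genes. With median-ratio scaling 5 held lower and 3 higher in dellaq, 16.1% and 9.68% of the list, where 16.2% and 17.4% of all genes did so. In lec1-4, 4 held higher and 1 lower, 12.9% and 3.23% of the list, beside 8.19% and 4.01% of all genes. MYB3R4 (AT5G11510), an activator whose targets include B-type cyclins, had 9.85, 9.11 and 9.22 FPKM in dellaq and 22.8, 24.5 and 24.2 FPKM in lec1-4, against 17.4, 15.6 and 15.01 FPKM in Col-0-2 and 19.5, 20.08 and 18.96 FPKM in Col-0-1. The 4 groups did not overlap, and it changed by -0.71 ± 0.06 and -0.98 ± 0.06 in dellaq (limma adjusted p = 8.8e-07 and 5.8e-08) and by 0.55 and 0.27 in lec1-4, in all 22 alternatives. The 2 that held higher in dellaq were SMR5 (AT1G07500), a SIAMESE-related inhibitor induced by DNA damage, and AT1G10690. SMR5 had 1.91, 4.98 and 6.201 FPKM in dellaq and 0, 0.291 and 0.324 FPKM in lec1-4, against 2.29, 0.272 and 0 FPKM in Col-0-2 and 0.897, 0.894 and 0.2996 FPKM in Col-0-1. Its dellaq libraries overlapped Col-0-2, at up to 23 fragments in a library, and the changes were 1.63 ± 0.41 and 1.58 ± 0.41. AT1G10690 had 7.93, 12.3 and 12.9 FPKM in dellaq and at most 3.78 FPKM in any other library, with changes of 1.92 ± 0.19 and 1.46 ± 0.19. CKS1 and CKS2, small CDK-binding subunits named after their values were seen, were below Col-0-2 and above Col-0-1 in both mutants, with changes of -0.34 and 0.59 in dellaq and -0.56 and 0.37 in lec1-4 for CKS1. The changes in dellaq against Col-0-2 did not pass after removal of the length and GC trend.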

How the data were processed

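Poly-A RNA was measured in 12 seed libraries, 3 per group, and no label says that replicates came from different plants, so the p-values reflect only how these samples vary, possibly for technical reasons. Each file holds FPKM values, deposited by the authors in that unit, with a value for each gene and library. Named without roles, per the submitters' processing notes, are TopHat2 2.0.12 with Bowtie2 2.2.3, then DESeq 1.18.0 and HTSeq 0.6.1. For the genome build, annotation and counting mode the entry is: not given in the sources used here, and 11 members overlap a neighbouring gene whose reads cannot be told apart without strand. Names came from a RefSeq table of TAIR10.1 (32835 of 33602 IDs matched), and no coordinates are given. No sequences are printed.

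Limma-trend (limma 3.58.1, R 4.3.3) was fitted to log2(FPKM + 1) with all 12 libraries, 1 mean per group and 8 residual degrees of freedom, for the 20222 genes that reached 1 FPKM in 3 or more libraries (13380 left out), two-sided. The log2 scale understates changes of low genes. The limma fit was tested on simulated data with independent noise. That simulation held no scaling shift and no length trend, so it does not cover those seen here. Low FPKM values were whole multiples of 1 fragment: all 27446 genes above 0 gave whole fragments within 0.01 (counts up to a common divisor), which gave the depths. No columns were unmapped, and no library pair shared identical non-zero values. Alternatives were other filters (none; 5 FPKM), a pseudocount of 0.1, 3 scalings, a replicate block, only the compared libraries, removal of the length and GC trend, a log2 fold limit of 1 and leaving out each library. Voom on recovered fragments was added after seeing the data.

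The set of members (by a rule on locus IDs that uses no measured value), the gene lists and the tests were chosen with earlier results of these data known. Values in every library are given, per class, for the 2 most abundant members and up to 4 with the largest change held against both sets, and for CDKA;1. Of the regulator list, the 3 with the largest held change are named. Members with values outside this rule, and CKS1 and CKS2, were picked once their values were known and are marked so. The remaining members are given by range or change. Marker lists are given as counts and sums.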

Additional observations from a re-analysis of the deposited data

Results flagged for a closer look

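For 7 members the difference between the mutants passed the direct test in limma, and their changes from wild type held in opposite directions, lower in dellaq and higher in lec1-4. The direct test passed for 74.8% of all tested genes, and 4.04% held lower in dellaq and higher in lec1-4. The log2 difference, dellaq minus lec1-4, was -1.25 for CDKB1;2, -1.02 for CDKB2;1 and -1.01 for CDKB2;2. It was -1.23 for CYCB1;1, -1.55 for CYCB1;3, -1.63 for CYCB3;1 and -1.98 for CYCD6;1. Adjusted p-values (Benjamini-Hochberg over 20222 genes) ran from 2.6e-10 for CYCD6;1 to 2.3e-07 for CDKB2;2. In each of the 7 genes all 3 dellaq libraries were below all 3 lec1-4 libraries. The 7 were chosen by calls below and above the same wild-type libraries. The direct difference, its p-values and this separation largely follow from that choice and are no further evidence. With median-ratio scaling both held calls remained for 3 of the 7, namely CDKB2;2, CYCB3;1 and CYCD6;1. Seed coat markers, endosperm markers and the plastid-encoded sums also differ between these mutants, and their part in the differences was not tested.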

How the results depend on the processing

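The counts of members that passed were recomputed under 23 alternatives. With median-ratio scaling, those held in dellaq were 15 lower and 4 higher (23 and 1 as reported), those held higher in lec1-4 were 6 (12), those higher in dellaq than in Col-0-1 were 6 (2) and than in lec1-4 6 (3). With the length and GC trend removed the same counts were 13 and 3, 8, 5 and 5, where 8 is within 1.5 times of 12. Of the 20056 genes tested in that setting, the same counts were 3280 and 3443, 1149, 6183 and 6481. Upper-quartile scaling gave 2 held higher in dellaq, beside 2711 of the 20222 tested genes. With equal FPKM sums the counts were 0 held higher in dellaq, 0 higher than Col-0-1, 1 higher than lec1-4, 0 lower in lec1-4 than in Col-0-2 and 1 higher in Col-0-2 than in Col-0-1 (5). Over the 20222 tested genes these were 1409, 2674, 2989, 3507 and 3893. In each of these settings the cause was not tested.

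With a fold limit of log2 1, dellaq was lower for 2 and higher for 1 against Col-0-2. It was lower for 4 and higher for 0 against Col-0-1, and lower for 12 and higher for 0 against lec1-4. Of the 20222 tested genes, 1705 were lower and 997 higher against Col-0-2, 1358 and 971 against Col-0-1, and 1894 and 1159 against lec1-4. In lec1-4, 3 were higher and 0 lower against Col-0-2, and 0 and 0 against Col-0-1. Over all tested genes these were 934 and 1284 against Col-0-2, and 240 and 235 against Col-0-1. Col-0-2 was lower than Col-0-1 for 2 and higher for 0, beside 931 and 1368 of all tested genes. CYCD6;1 alone held lower in dellaq (1), and 0 held higher in either mutant. Over all tested genes 709 held lower and 484 higher in dellaq, and 144 held higher in lec1-4.

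Leaving out 1 library gave 20 to 23 held lower in dellaq, 6 to 14 held higher in lec1-4, 9 to 18 higher and 1 to 3 lower in lec1-4 than in Col-0-1, and 0 to 1 lower than in Col-0-2. The ranges were 1 to 2 higher in dellaq than in Col-0-1, 1 to 3 higher than in lec1-4, and 3 to 5 higher in Col-0-2 than in Col-0-1. A left-out library also lowers the number of samples.

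Replicate numbers do not pair the libraries: in 18 pairs of the same number the deviations correlated at -0.102 to 0.189, with 2 over 0.1. With a replicate block 23 held lower and 1 higher in dellaq, and 12 held higher in lec1-4. Single changes were recomputed for the tested members, the regulators named above, and WEE1, OSD1, MYB3R1 and CDC20.1. Of these 4128 recomputed changes, 3902 kept their side of the threshold, and those among them that passed kept direction. Another 163 lost the call, 55 gained it in the same direction and 8 reversed, with a call before or after. Changes that passed in neither fit count among the 3902 whatever their sign. The reversed changes, all dellaq against Col-0-1, were 0.21 and 0.16 for CDKA;1, 0.017 and 0.051 for CYCA1;1, 0.011 and 0.025 for CYCD3;1 (median-ratio scaling, then length and GC trend removed), 0.19 for CYCD3;2 (median-ratio scaling) and -0.17 for KRP4 (equal FPKM sums). Voom gave 16 held higher in lec1-4, beside 1848 of the 20222 tested genes. Counts of under 100 fragments limit the precision of 11 members.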
